A study of Mus musculus with 6 samples.

Results

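The genes of mouse chromosomes 6 and 14 were followed across 6 clones of mpkCCD, an epithelial line from the mouse kidney collecting duct. A gene was included when it lay on either chromosome and had a mean of at least 10 scaled reads over the 6 libraries. This left 1199 of the 20896 genes in the table, 715 of the 1112 listed on chromosome 6 and 484 of the 771 on chromosome 14. Just inside the limit were Kel, at a mean of 10.0 scaled reads, and 5730457N03Rik, at 10.1. Just outside were D830026I12Rik and Zfp957, at 9.99 and 9.98. The chromosomes were chosen by these same values, the median deviations of single clones, so the deviations below are a description and carry no test.

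The clones fell into 3 control lines and 3 lines that carry the label of a double knockout of protein kinase A (dKO), each 1 clone with 1 library of RNA depleted of ribosomal RNA. Both groups stemmed from the same parental line and received the same culture. They grew on permeable membranes in 2% serum for 4 days and then for 3 days, free of serum, in 0.1 nM dDAVP, an agonist of the vasopressin V2 receptor. Each library held 28596444 to 42515838 reads. Control clone 1 and dKO clone 3 were unlike the rest, with 2443 and 2363 listed genes without a read against 863 to 1045 in the other 4, so results are also given within those 4. The genes of the PKA catalytic subunits lie elsewhere: Prkaca, on chromosome 8, had 75.8 to 133 CPM (read counts scaled to library size) in control and 6.65 to 8.49 CPM in the dKO clones, and Prkacb, on chromosome 3, had 109 to 138 and 99.1 to 105 CPM. Summed epithelial markers stood at 4411 to 4819 CPM in the control clones and 3996 to 4353 CPM in the dKO clones, and the summed fibroblast markers at 1.66 to 7.33 and 1.77 to 5.19 CPM.

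Immortalised lines in culture can gain or lose chromosomes or stretches of them, and growth from a single cell fixes the state that the cell had. The RNA of most genes tends to follow the number of gene copies, whereas a gene under feedback or under a strongly varying transcription factor can depart from it. Chromosome 6 carries the Hoxa cluster, several imprinted genes and the glycolytic genes Gapdh and Tpi1, and chromosome 14 carries Rb1 and many genes of chromatin and proteasome. DNA was not measured here, so whether a shift in RNA followed gene copies was not tested.

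The upstream sequences of 4 genes are shown, as examples, chosen after their values were seen, of genes that departed from their chromosome in either direction: Tmem176a and Kcnk5 were not lower in dKO clone 3 although their chromosomes were, and Zfp422 and Hoxa9 lay far below it in that clone. Each is the 250 bases before the RefSeq start in GRCm38.p6, written from 5′ to 3′ on the strand of the gene, with every CG dinucleotide in capitals. They are chr6:48841233-48841482 (plus strand), chr14:20181783-20182032 (minus strand), chr6:116628702-116628951 (minus strand) and chr6:52227371-52227620 (minus strand). The Zfp422 window lies within the listed span of that gene, given further on, so it is upstream of the RefSeq start only.
Tmem176a: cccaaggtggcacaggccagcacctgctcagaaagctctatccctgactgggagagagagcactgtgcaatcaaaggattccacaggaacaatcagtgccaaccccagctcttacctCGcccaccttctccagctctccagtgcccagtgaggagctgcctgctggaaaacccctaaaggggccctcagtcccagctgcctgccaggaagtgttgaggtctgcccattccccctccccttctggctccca
Kcnk5: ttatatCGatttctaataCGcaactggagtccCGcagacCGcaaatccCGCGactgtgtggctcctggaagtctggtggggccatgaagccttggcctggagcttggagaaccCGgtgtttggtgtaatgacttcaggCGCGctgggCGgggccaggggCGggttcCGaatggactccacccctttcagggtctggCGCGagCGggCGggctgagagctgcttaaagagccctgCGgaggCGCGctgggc
Zfp422: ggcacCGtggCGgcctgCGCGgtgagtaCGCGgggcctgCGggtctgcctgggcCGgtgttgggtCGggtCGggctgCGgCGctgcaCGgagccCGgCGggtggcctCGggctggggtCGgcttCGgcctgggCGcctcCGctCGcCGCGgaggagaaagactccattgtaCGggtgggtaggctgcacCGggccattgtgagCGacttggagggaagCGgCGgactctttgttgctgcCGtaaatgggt
Hoxa9: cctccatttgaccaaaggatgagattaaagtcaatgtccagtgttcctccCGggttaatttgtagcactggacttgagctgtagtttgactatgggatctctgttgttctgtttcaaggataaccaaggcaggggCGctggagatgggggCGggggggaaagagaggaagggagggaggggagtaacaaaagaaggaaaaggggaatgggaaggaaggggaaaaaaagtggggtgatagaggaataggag
CG, which reads the same on both strands, occurs 1 time in the window of Tmem176a, 19 times in that of Kcnk5, 29 times in that of Zfp422 and 3 times in that of Hoxa9. The median over 32851 RefSeq promoters of the same length was 6, and 37.8% held at least 10. Over the 863 included genes with a matched promoter the median was 14, and 68.5% held at least 10. Each pair thus has 1 member below both medians and 1 above both. Of the 1199 genes, 72.0% matched a RefSeq promoter within 500 bases of their start, and 60.0% of those that went against the shift, which is too few to compare the sets.

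In dKO clone 3 the genes of both chromosomes lay below the other clones as a body. The deviation of a gene in a clone is its log2 level there minus the median of the other 5 clones. In bulk RNA, fewer cells with a normal level and less RNA in every cell cannot be told apart. Over all included genes the median deviation of dKO clone 3 was -0.41 on chromosome 6 and -0.44 on chromosome 14. Genes under 5 CPM were low in this clone on the other chromosomes too, with a median of -1.37 on chromosome 6, -1.31 on chromosome 14 and -0.83 on the other chromosomes. Values from here on are therefore for genes of at least 5 CPM, which are 457 on chromosome 6 and 330 on chromosome 14, unless stated.

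Among these, dKO clone 3 had a median of -0.32 on chromosome 6 (quartiles -0.45 and -0.20) and of -0.38 on chromosome 14 (quartiles -0.48 and -0.26). Its median over the 9138 genes of the other chromosomes was 0.16, and single chromosomes ran from 0.01 on chromosome 10 to 0.33 on chromosome 19. Measured from the other chromosomes, chromosome 6 stood at -0.48 and chromosome 14 at -0.53. In this clone 421 of 457 genes on chromosome 6 (92.1%) and 315 of 330 on chromosome 14 (95.5%) lay below 0, against 21.3% on the other chromosomes. The shift did not depend on level from 5 CPM upward: the median ran from -0.31 to -0.32 over 4 classes of level on chromosome 6 and from -0.33 to -0.42 on chromosome 14.

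Control clone 1 went the other way on chromosome 14 and hardly moved on chromosome 6. Its median was 0.46 on chromosome 14 (quartiles 0.35 and 0.65) and 0.21 on chromosome 6 (quartiles 0.05 and 0.37), beside 0.14 on the other chromosomes. Measured from the other chromosomes these were 0.32 and 0.07. On chromosome 14 only 5 of 330 genes lay below 0 in this clone, and on chromosome 6 79 of 457 did. Over all included genes the medians were 0.38 and 0.08, since genes under 5 CPM were low in control clone 1 as well (-0.81 on chromosome 14, -1.12 on chromosome 6 and -0.97 elsewhere). The other 4 clones had chromosome 6 medians from -0.03 to 0.04. Measured from the other chromosomes they stood at 0.06 to 0.09, so control clone 1, at 0.07, was not set apart from them on chromosome 6.

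Chromosomes 6 and 14 were not the only ones to differ between clones. On chromosome 8 control clone 1 stood at 0.37 and control clone 2 at -0.39, and on chromosome 5 control clone 1 stood at 0.32 and control clone 3 at -0.24. Measured from the other chromosomes, control clone 1 stood at -0.32 on chromosome 12 and -0.28 on chromosome 10, beside 0.32 on chromosome 14. Of the 18 other chromosomes, none in dKO clone 3 had a median below 0.

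**Figure D1:**
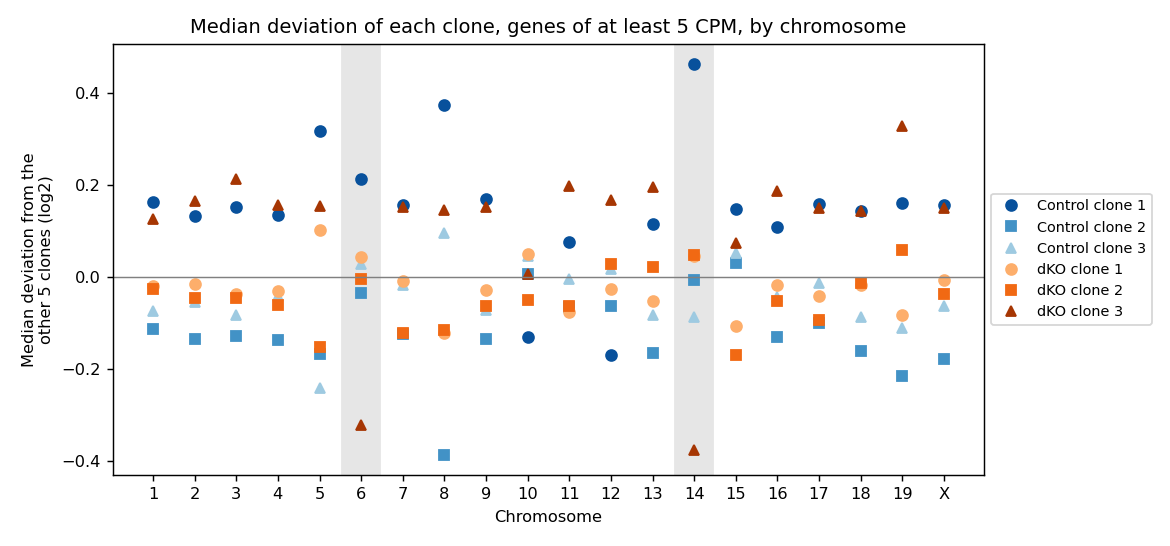
Median log2 deviation of each of the 6 clones from the other 5 (vertical axis) for genes of at least 5 CPM on each chromosome (horizontal axis), 1 point per clone, with chromosomes 6 and 14 shaded. The points of dKO clone 3 lie at -0.32 and -0.38 on the shaded chromosomes and above 0 on all others, and control clone 1 is highest on chromosome 14, at 0.46.

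Taken clone against clone, chromosome 6 gave nearly the same ratio for dKO clone 3 whichever clone it was set against. After the median of the other chromosomes was removed, the median level of dKO clone 3 was 0.723 of control clone 1, 0.708 of control clone 2, 0.716 of control clone 3, 0.720 of dKO clone 1 and 0.734 of dKO clone 2. Every pair among those 5 clones had a ratio between 0.979 and 1.02. The low level ran along the whole chromosome: in the 11 windows of 10 Mb that held at least 20 genes, the median of dKO clone 3 lay between -0.38 and -0.27, and that of control clone 1 between 0.09 and 0.27. Parting chromosome 6 at its best point removed 0.166% of the absolute deviation in dKO clone 3, so no step was seen within it.

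**Figure D2:**
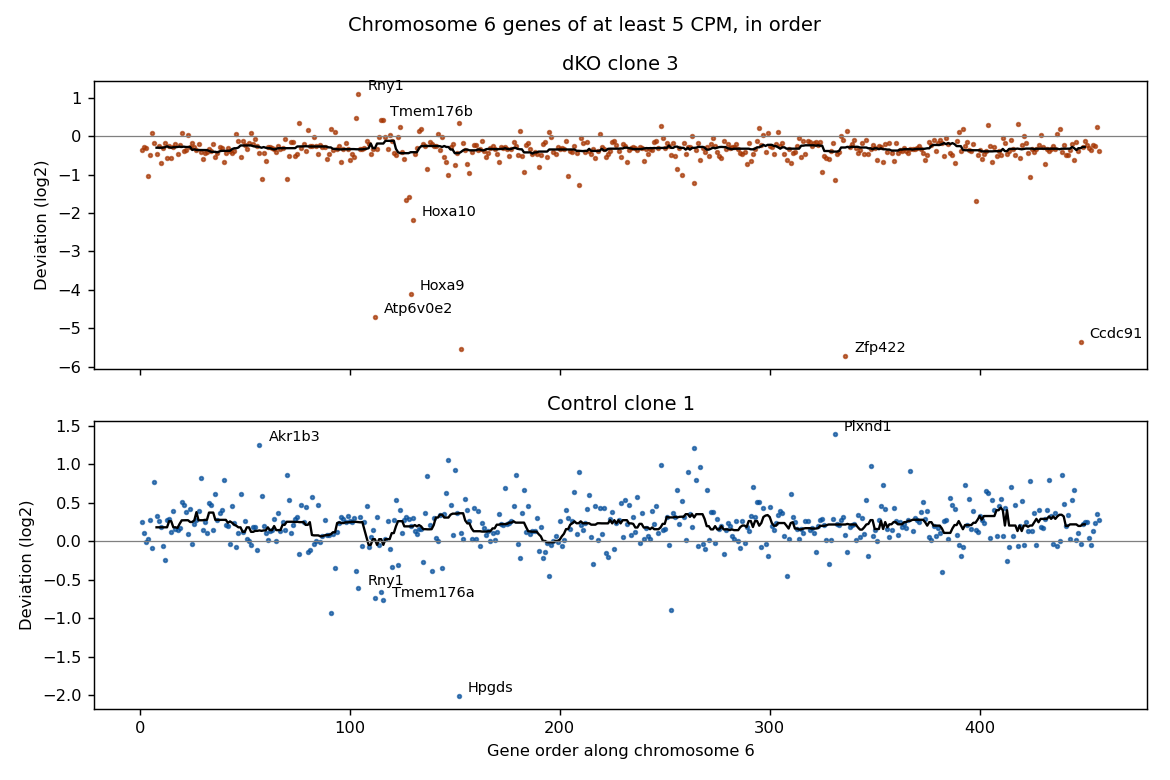
Log2 deviation (vertical axis) of the 457 chromosome 6 genes of at least 5 CPM in their order along the chromosome (horizontal axis), for dKO clone 3 above and control clone 1 below, with 1 point per gene and the running median of 15 genes as a line. The line of dKO clone 3 stays below 0 along the chromosome, with Rny1 and Tmem176b above it and Zfp422 and Ccdc91 more than 5 log2 units below 0.

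Chromosome 14 was not uniform. Control clones 2 and 3 and dKO clones 1 and 2 parted at 1 point, between Wapal, which ends at 34745952, and Ccser2, which starts at 36874936 (GRCm38). The best point was the same in control clone 2, dKO clone 1 and dKO clone 2, and in control clone 3 it lay 1 gene later, between Ccser2 and Ghitm. In these 4 clones the split removed 20.1% to 30.5% of the absolute deviation. In control clone 1 the best point lay between Bmpr1a and Wapal and removed 4.01%. In dKO clone 3 it lay between Parg and Ercc6 and removed 5.90%. Each deviation is taken from the other clones, so a step in some clones puts one in the others, and these points are not independent of each other. Proximal of the point between Wapal and Ccser2 lay 138 of the included genes, 97 of them of at least 5 CPM. Distal of it lay 346, of which 233 had at least 5 CPM. Because the point was placed with these same deviations, the differences between its sides are a description.

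On the proximal side dKO clones 1 and 2 were high and control clones 2 and 3 low. The medians there were 0.33 in dKO clone 1, 0.29 in dKO clone 2, -0.28 in dKO clone 3, 0.38 in control clone 1, -0.33 in control clone 2 and -0.46 in control clone 3. On the distal side the same clones came to -0.01, -0.05, -0.42, 0.52, 0.08 and -0.03. Control clone 1 was thus above and dKO clone 3 below on both sides, and the other 4 clones changed their place at the point.

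The pairwise ratios show the same in linear terms, again relative to the other chromosomes. On the distal side dKO clone 3 stood at 0.691 of control clone 3, 0.697 of dKO clone 1 and 0.691 of dKO clone 2, at 0.619 of control clone 2 and at 0.545 of control clone 1. On the proximal side it stood at 0.699 of dKO clone 1, 0.700 of dKO clone 2 and 0.744 of control clone 1, but at 0.889 of control clone 2 and 1.06 of control clone 3. On the distal side control clone 3 and dKO clones 1 and 2 were within 0.995 to 1.00 of each other, whereas on the proximal side dKO clone 1 was at 1.48 and dKO clone 2 at 1.47 of control clone 3.

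**Figure D3:**
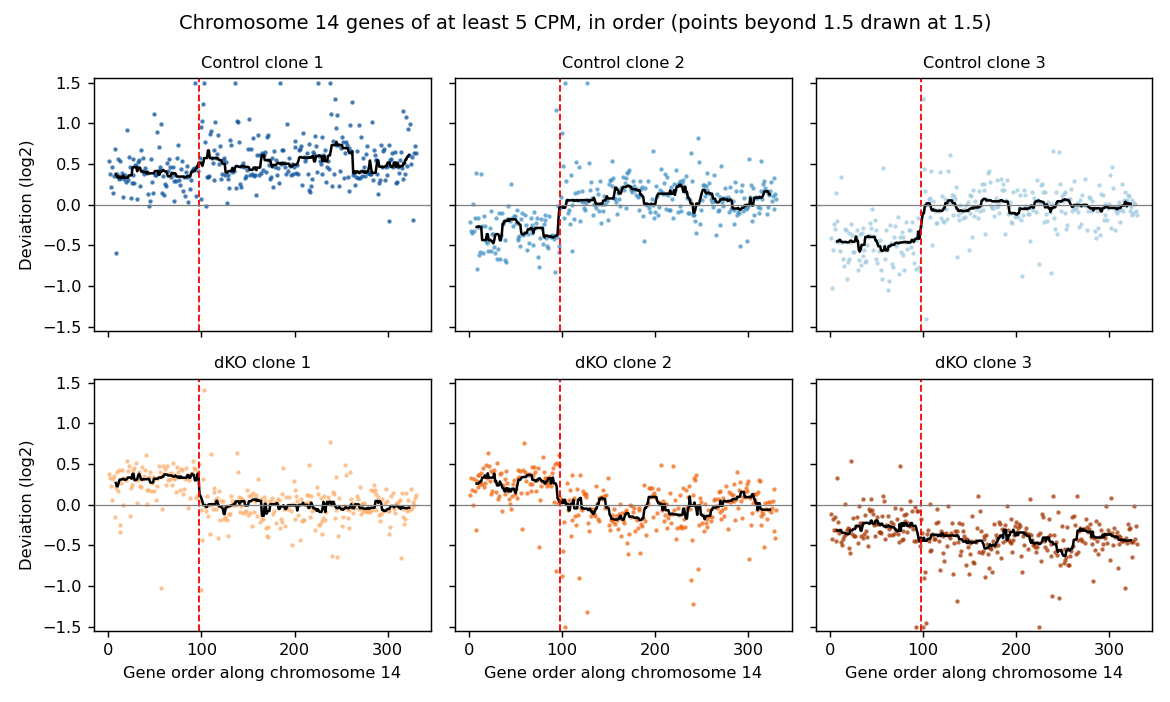
Log2 deviation (vertical axis, drawn to 1.5 either way) of the 330 chromosome 14 genes of at least 5 CPM in their order along the chromosome (horizontal axis), 1 panel per clone, with the running median of 15 genes as a line and the point between Wapal and Ccser2 as a dashed line. The running medians of control clones 2 and 3 rise and those of dKO clones 1 and 2 fall at the dashed line, while control clone 1 stays above and dKO clone 3 below 0.

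The genes beside the point show the step 1 by 1. Bmpr1a, a receptor of bone morphogenetic proteins, had 305, 202 and 179 CPM in control clones 1, 2 and 3 and 303, 320 and 229 CPM in the dKO clones 1, 2 and 3. Wapal, which releases cohesin from chromosomes, had 257, 179 and 145 CPM in the control clones and 255, 276 and 180 CPM in the dKO clones. In both genes dKO clones 1 and 2 lay above control clones 2 and 3, and the 2 groups overlapped through control clone 1 and dKO clone 3. Ghitm, on the distal side, had 240, 243 and 221 CPM in the control clones and 229, 238 and 188 CPM in the dKO clones. There dKO clone 3 alone stood apart. Glud1, which encodes glutamate dehydrogenase and lies on the proximal side, differed from its neighbours, with 209, 150 and 136 CPM in the control clones and 162, 152 and 144 CPM in the dKO clones.

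Within control clones 2 and 3 and dKO clones 1 and 2, the median difference (mean log2 level, dKO minus control) was 0.48 proximal of the point (quartiles 0.36 and 0.63) and -0.04 distal of it, beside 0.03 on chromosome 6 and 0.04 on the other chromosomes. Both dKO clones exceeded both control clones at 89 of 97 proximal genes. Over all included genes this held for 105 of 138 proximal genes (76.1%), 52 of 346 distal genes and 144 of 715 genes of chromosome 6 (20.1%), where 24% of all genes with at least 10 scaled reads did so. Both dKO clones lay under both control clones at 3 proximal, 88 distal and 142 chromosome 6 genes, with 21.1% over all genes. Chromosome 6 was thus near the background in these 4 clones. The step of 0.52 between the sides of chromosome 14 was the highest of the 20 chromosomes parted the same way, with chromosome 8 next at 0.51. By the share of absolute deviation that the split removed, by which the point was placed, chromosome 8 came first at 37.9% and chromosome 14 second at 34.6%.

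**Figure D4:**
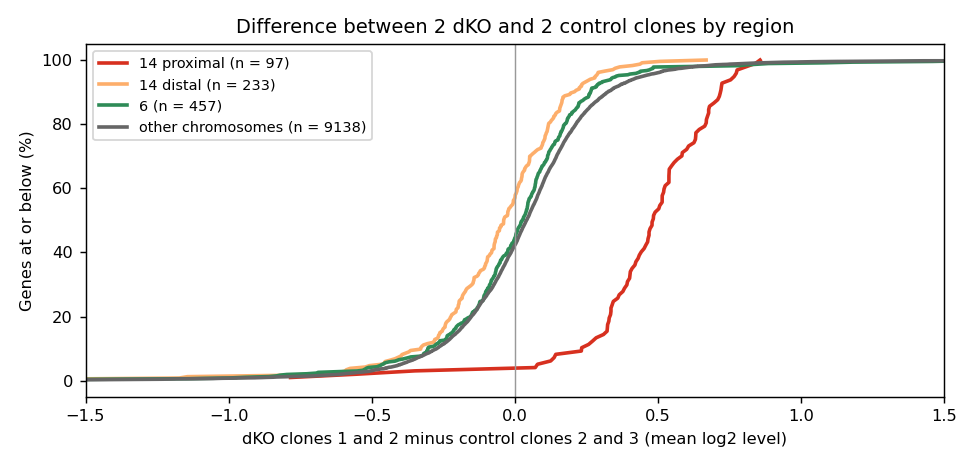
Cumulative share of genes of at least 5 CPM (vertical axis, percent) by the difference in mean log2 level between dKO clones 1 and 2 and control clones 2 and 3 (horizontal axis), for proximal and distal chromosome 14, chromosome 6 and the other chromosomes. The proximal curve is displaced to the right, with a median of 0.48, and the other 3 lie close together.

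A limma-trend test of these 4 clones, adjusted over all genes, called 38 proximal genes higher in the dKO clones (27.5% of 138) and none lower, with 1.69% of all genes called higher and 1.71% lower. None of the 346 distal genes was called higher and 8 were called lower. On chromosome 6 9 were called higher and 17 lower (1.26% and 2.38%), close to those shares. The proximal count cannot be told apart from the step that defined the proximal side. It was 14 without control clone 3 (10.1%), where 1.65% of all genes were called higher. The 38 included Mapk8, which encodes the stress kinase JNK1 (log2 fold change 0.84, SE 0.12), Plau, the urokinase gene (0.81, SE 0.11), Chdh, the choline dehydrogenase gene (0.86, SE 0.14), the topoisomerase gene Top2b (0.72, SE 0.11), the proteasome subunit gene Psmd6 (0.68, SE 0.11) and the chromatin remodeller gene Pbrm1 (0.75, SE 0.11). These 6 were chosen after their values were seen. Bap1, a deubiquitinase gene, had the smallest change among the 38, at 0.42 (SE 0.11).

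Between all 3 control and all 3 dKO clones, 2 of the 1199 genes changed (limma-trend, Benjamini-Hochberg adjusted p under 0.05 over 16683 genes), Inmt on chromosome 6 and Dock5 on distal chromosome 14, both lower in dKO. All 1199 had passed the filter on low values. Over all genes tested, 0.0539% were called higher and 0.114% lower. By an unadjusted p under 0.05, 61 of 715 genes of chromosome 6 were lower (8.53%), as were 74 of 346 distal (21.4%) and 3 of 138 proximal genes of chromosome 14 (2.17%), against 3.84% of all genes. For higher genes the counts were 5, 1 and 2, against 2.4%. Without dKO clone 3 the lower shares were 5.73% on chromosome 6 and 10.1% distal, against 4.38% of all genes. The chromosomes were chosen for deviations of clones that enter this contrast, so nothing is read from these shares. The median log2 fold change was -0.15 on chromosome 6, -0.32 on distal and 0.19 on proximal chromosome 14, and -0.00 over all genes. Without dKO clone 3 these were 0.01, -0.15 and 0.34, and 0.04 over all genes. The group difference on these chromosomes includes dKO clone 3 and control clone 1. With each library's chromosome medians removed, the calls were 4 higher proximal and 2 lower distal genes, and 0 on chromosome 6. Over all genes 0.138% were then called higher and 0.222% lower. That removal took 1 median for the whole of chromosome 14, so the step within it remained. The median log2 fold change was still 0.40 on proximal and -0.11 on distal chromosome 14. Without control clone 1, calls rose over all genes, to 0.492% higher and 0.336% lower, and were 2 higher and 9 lower genes on chromosome 6 and 3 higher and 2 lower on chromosome 14. On chromosomes 6 and 14 the calls were 3 and 0 without control clone 2, 0 and 0 without dKO clone 1 or dKO clone 2, and 2 and 0 without dKO clone 3. Over all genes these 4 fits called 0.012% to 0.0539% higher and 0.0539% to 0.132% lower.

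Inmt encodes indolethylamine N-methyltransferase (ENSMUSG00000003477.5, chromosome 6, 55170626 to 55175043, minus strand, 3 exons). It had 82.2, 104 and 139 CPM in control clones 1, 2 and 3 and 27.4, 16.9 and 45.4 CPM in the dKO clones 1, 2 and 3. The groups did not overlap, and dKO clone 3 was the highest of the dKO clones although its chromosome was lowest there. The dKO minus control difference was -1.94 log2 units with an SE of 0.30 (limma adjusted p = 0.0380). It was no longer past the threshold with chromosome medians removed (-1.76, adjusted p = 0.0940), nor without dKO clone 1 (0.110) or dKO clone 2 (0.0795), without TMM factors (0.0661) or with the edgeR quasi-likelihood test (0.0514).

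Dock5 encodes an activator of Rac (ENSMUSG00000044447.5, chromosome 14, 67751928 to 67933572, minus strand, 52 exons). It had 115, 94.2 and 83.4 CPM in the control clones and 53.5, 48.3 and 37.7 CPM in the dKO clones. The groups did not overlap, with control clone 1 highest and dKO clone 3 lowest, in the order of the chromosome's own shift. The dKO minus control difference was -1.07 log2 units with an SE of 0.17 (limma adjusted p = 0.0373). It was -0.86 with an SE of 0.09 (limma adjusted p = 0.00383) once chromosome medians were removed. That removal took 1 median for both sides of chromosome 14, and distal genes kept a median log2 fold change of -0.11. Leaving out control clone 2 or any dKO clone ended the call, with adjusted p from 0.0517 to 0.122, and so did leaving out the TMM factors (0.0506).

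DESeq2 and the authors' deposited table called more of these genes, all of them lower, and edgeR called fewer. DESeq2 on the recovered reads called 21 genes of chromosome 6 and 15 of chromosome 14 lower, the latter all distal, and 0 higher, beside 0.899% lower and 0.354% higher of all genes. The edgeR quasi-likelihood test called 0 genes of chromosome 6 and 1 of chromosome 14, lower, with 0.0539% higher and 0.114% lower over all genes. In the authors' deposited table, at a false discovery rate under 0.05, 24 of 472 genes on chromosome 6, 33 of 238 distal and 2 of 98 proximal genes were lower and 0 higher, where 2.49% of all 10190 genes were lower and 0.981% higher.

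Few genes went against the shift of dKO clone 3. Such a gene was taken as one whose deviation had the opposite sign to its chromosome's median and lay more than 2 counting standard errors from 0. These were 16 of 457 on chromosome 6 (3.50%) and 4 of 330 on chromosome 14 (1.21%). When genes of the other chromosomes were moved to the same medians, 2.3% and 1.75% did so, which is close to what was seen. Without control clone 1 among the reference clones the counts were 27 and 15, and on chromosome 14 they were 12 without dKO clone 1 and 9 without dKO clone 2. In control clone 1, 2 of 330 genes of chromosome 14 went against the shift (0.606%), with 1.92% of the moved genes (4 without control clone 2 or control clone 3), and 36 of 457 of chromosome 6 did (7.88%), with 8.16%. With all clones in, shares so near the background are not a result about these chromosomes, and the genes below are described for their own values. The moved genes were not counted for the settings that leave out a clone. Those counts therefore have no background beside them, and nothing is read from them. The standard error covers counting only.

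Rny1, one of the small cytoplasmic Y RNAs bound by Ro60, lay furthest above (chromosome 6, 47788069 to 47788180, minus strand, 1 exon). It had 31.4, 35.9 and 48.0 CPM in control clones 1, 2 and 3, and 51.2, 39.4 and 84.3 CPM in the dKO clones 1, 2 and 3. It was thus highest in dKO clone 3 and lowest in control clone 1, and the deviation of dKO clone 3 was 1.10 (counting SE 0.05). Its neighbour Rny3, another Y RNA, had 23.3, 30.4 and 29.2 CPM in the control clones and 38.4, 23.3 and 40.4 CPM in the dKO clones. It too was highest in dKO clone 3, but dKO clone 1 came close.

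About 1 Mb further along, Tmem176a and Tmem176b, a pair of paralogous membrane protein genes read in opposite directions, behaved alike. Tmem176a had 17.6, 31.3 and 24.5 CPM in the control clones and 30.0, 21.6 and 32.7 CPM in the dKO clones. Tmem176b had 34.8, 55.1 and 41.2 CPM in the control clones and 60.7, 50.6 and 68.3 CPM in the dKO clones. Both were lowest in control clone 1 and highest in dKO clone 3, where they deviated by 0.42 and 0.43. The sources used here do not say how reads were divided between paralogs.

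Hpgds, the hematopoietic prostaglandin D synthase gene, varied most among the genes against the shift of dKO clone 3. It had 4.48, 18.2 and 4.95 CPM in the control clones and 26.6, 15.2 and 19.5 CPM in the dKO clones, so that control clones 1 and 3 were low and the rest high. Nfe2l3, a transcription factor gene of the NRF family, had 24.4, 17.6 and 16.1 CPM in the control clones and 21.5, 18.4 and 21.6 CPM in the dKO clones. The other 10 on chromosome 6 deviated in dKO clone 3 by 0.09 (Tes, a focal adhesion gene) to 0.34 (1110001J03Rik), among them Chn2, Parp12 and Rad51ap1.

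On chromosome 14 the genes against the shift of dKO clone 3 were Kcnk5, Nt5dc2, 3830406C13Rik and Tbc1d4, the first 3 proximal. Kcnk5, a gene of a pH-sensitive potassium channel of tubule epithelium, had 39.8, 21.4 and 27.0 CPM in the control clones and 29.0, 31.8 and 42.2 CPM in the dKO clones, with control clone 1 and dKO clone 3 the highest. Nt5dc2 had 36.7, 17.2 and 22.1 CPM in the control clones and 29.3, 20.4 and 30.6 CPM in the dKO clones. Tbc1d4, a Rab GTPase activator that controls glucose transporter traffic, was nearly level, at 153, 178 and 145 CPM in the control clones and 167, 177 and 176 CPM in the dKO clones. Tbc1d4 and 3830406C13Rik were also the 2 genes of chromosome 14 against the shift of control clone 1. Tbc1d4 deviated by 0.08 in dKO clone 3 and -0.20 in control clone 1.

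Other genes stayed level without passing the rule. Met, the hepatocyte growth factor receptor gene on chromosome 6, had 381, 335 and 362 CPM in the control clones and 342, 356 and 362 CPM in the dKO clones, a deviation of 0.02 in dKO clone 3. It thus stood at the level of the other clones on a chromosome whose median was -0.32. The 20 genes against the shift of dKO clone 3 had a median of 32.3 CPM and 6.5 exons, and the other 767 genes of at least 5 CPM one of 49.5 CPM and 10 exons.

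A few genes of chromosome 6 fell far below the chromosome in dKO clone 3. There 6 of 457 genes lay more than 2 log2 units below the other clones (1.31%), against 0.131% of all genes of at least 5 CPM, and 0 of 330 did on chromosome 14. More than 1 unit below were 19 genes of chromosome 6 (4.16%), 7 distal (3.00%) and 1 proximal gene of chromosome 14, against 0.725% of all genes. In control clone 1 only 1 gene of chromosome 6, Hpgds, lay more than 2 units below. These limits were set after the values were seen. They count from 0, and in dKO clone 3 the medians were -0.32 on chromosome 6, -0.38 on chromosome 14 and 0.16 elsewhere. Genes of chromosomes 6 and 14 thus started nearer the limits, and the compared genes were not moved to the same medians. Nothing is read from the excess in these shares.

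Zfp422, a zinc finger gene (116624016 to 116628999, minus strand, 2 exons), had 27.8, 26.3 and 26.4 CPM in the control clones and 32.0 and 25.3 CPM in the dKO clones 1 and 2, but 0.449 CPM in dKO clone 3, from 16 reads. Ccdc91, which encodes a coiled-coil protein of the Golgi (147475871 to 147632612, plus strand, 13 exons), had 15.7, 17.1 and 16.0 CPM in control, 17.9 and 14.1 CPM in the dKO clones 1 and 2, and 0.337 CPM in dKO clone 3, from 12 reads. In both genes the other 5 clones lay close together, so 1 clone alone made the difference, and the groups of 3 overlapped (limma adjusted p = 0.991 and 0.966). The deviations were -5.71 for Zfp422 (counting SE 0.36) and -5.36 for Ccdc91 (SE 0.42), well past the median of -0.32. Atp6v0e2, a subunit gene of the vacuolar proton pump, varied more, with 4.32, 8.28 and 11.3 CPM in the control clones and 7.25, 3.90 and 0.225 CPM in the dKO clones.

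Hoxa9 and Hoxa10, homeobox genes that give positional identity, were also among the 6 genes far below. Hoxa9 had 31.2, 26.6 and 27.3 CPM in the control clones and 33.7, 31.8 and 1.77 CPM in the dKO clones, and Hoxa10 had 31.1, 21.9 and 25.2 CPM in the control clones and 32.3, 32.8 and 6.85 CPM in the dKO clones. Of the 8 Hoxa genes listed, 7 were included. Hoxa5 deviated by -1.57 and Hoxa3 by -1.67 in dKO clone 3, whereas Hoxa4, under 5 CPM, did so by -0.92. The listed span of Hoxa3 overlaps Hoxa4 and Hoxa5, whose reads may be shared. The drop was thus steepest at Hoxa9 among these 5 and differed along the cluster. Zfp422 and Ccdc91 lie far from the cluster and from each other.

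**Figure D5:**
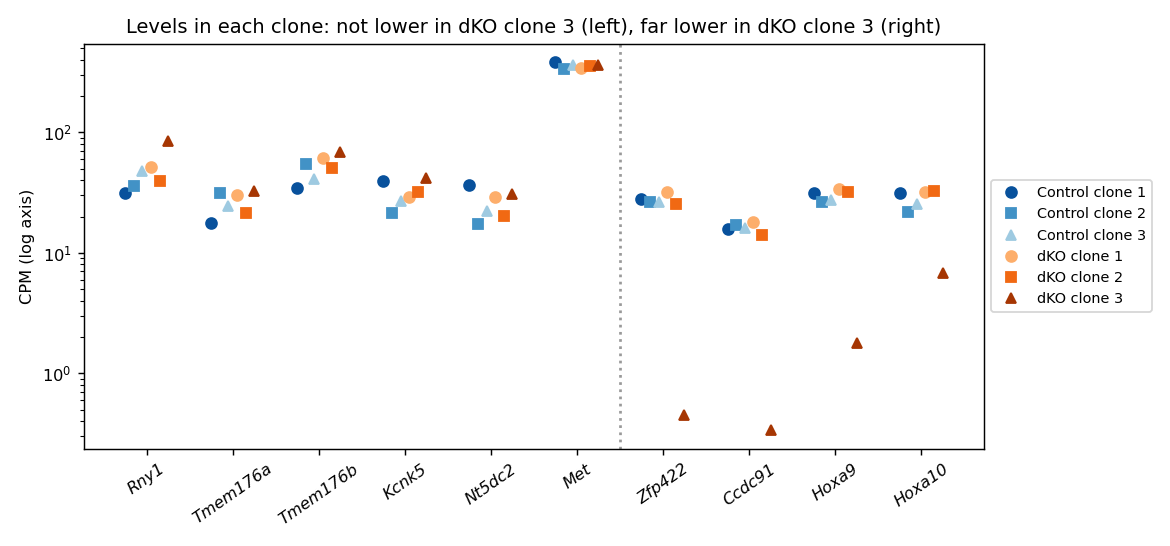
Level in CPM (vertical log axis) of 10 genes in each of the 6 clones, 1 point per clone. Left of the dotted line dKO clone 3 is level with or above most other clones, as for Rny1 at 84.3 CPM, and right of it dKO clone 3 lies far below the others, as for Zfp422 at 0.449 CPM.

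The largest excess in the direction of the shift of control clone 1 on chromosome 14 was that of Anxa8, an annexin gene, with 26.0, 2.59 and 1.13 CPM in the control clones and 1.54, 0.855 and 0.365 CPM in the dKO clones. It deviated by 4.46 in control clone 1 and by -1.93 in dKO clone 3, and it reached 5 CPM in control clone 1 alone. Fam167a deviated by 2.76, Sftpd, the gene of surfactant protein D, by 2.41, and the transglutaminase gene Tgm1 by 1.74 in control clone 1. Anxa8, Sftpd and Fam167a were also among the 4 furthest below in dKO clone 3, with Sh2d4b. On chromosome 6 the highest in control clone 1 were the semaphorin receptor gene Plxnd1 (1.39), the aldose reductase gene Akr1b3 (1.25), Fbln2 (1.21) and the efflux transporter gene Abcg2 (1.06). Akr1b3 had 161, 76.3 and 154 CPM in the control clones and 67.3, 43.6 and 56.7 CPM in the dKO clones.

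Genes of shared function followed the chromosome of dKO clone 3, like most genes around them. All 9 included genes of the metabolism list, all 20 of the list of ribosome, proteasome, respiratory chain and proton pump subunits and all 23 of the cytoskeleton and membrane list lay below 0 there. So did 26 of 29 growth control genes, all but Met, Gata2 and Gata4, 17 of 18 genes of epithelial transport, all but Slc6a12, and 6 of 8 imprinted genes, all but Pon3 and Mest. Of all included genes, 92.6% on chromosome 6 and 94.8% on chromosome 14 lay below 0 in this clone. These counts are therefore no result about function. All lists but that of the subunits also held genes under 5 CPM. Between the groups, 1 gene of these lists was called, Dock5 among the growth control genes. The median log2 fold change was 0.22 for metabolism, -0.11 for growth control, -0.27 for epithelial transport, -0.20 for the subunits, -0.02 for the imprinted and -0.28 for the cytoskeleton genes, against -0.00 over all genes. Over the included genes around them it was -0.15 on chromosome 6, -0.32 on distal and 0.19 on proximal chromosome 14. Nothing is therefore read about function from the medians of the lists.

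Gapdh and Tpi1, of glycolysis, had their low values in dKO clone 3 and in control clones 2 and 3. Gapdh had 593, 464 and 524 CPM in the control clones and 715, 663 and 528 CPM in the dKO clones. Tpi1 had 729, 591 and 600 CPM in the control clones and 848, 817 and 586 CPM in the dKO clones. In dKO clone 3 both stood at the level of the lower control clones, and against dKO clones 1 and 2 they were lower. Hk2, hexokinase 2, had 52.8, 63.9 and 63.9 CPM in the control clones and 49.3, 57.6 and 32.8 CPM in the dKO clones, with dKO clone 3 lowest. Bnip3l, a mitophagy receptor gene of distal chromosome 14, had 183, 141 and 126 CPM in the control clones and 155, 178 and 104 CPM in the dKO clones. Adk, adenosine kinase, on the proximal side, had 62.1, 37.9 and 44.0 CPM in the control clones and 72.2, 62.8 and 47.1 CPM in the dKO clones. In both genes, 1 from each side of chromosome 14, dKO clones 1 and 2 lay above control clones 2 and 3.

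Of the subunit genes, Rpl32 of the ribosome had 649, 690 and 774 CPM in the control clones and 614, 643 and 441 CPM in the dKO clones, and Psmc6 of the proteasome had 165, 128 and 137 CPM in the control clones and 141, 131 and 101 CPM in the dKO clones. In both dKO clone 3 was lowest. Rps24 and Rpl15, on the proximal side, had their lowest values in dKO clone 3 as well, at 356 and 195 CPM, and their highest in dKO clone 1, at 530 and 262 CPM. Vdac2, a mitochondrial porin gene, varied little, from 207 to 261 CPM.

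Of the transport genes, Scnn1a, the alpha subunit of the epithelial sodium channel, deviated by -0.20 in dKO clone 3, at 298 CPM. It had 343, 385 and 260 CPM in the control and 357 and 337 CPM in the other dKO clones. Wnk1, a kinase that regulates ion cotransporters, had 378, 192 and 191 CPM in the control clones and 192, 197 and 152 CPM in the dKO clones, with control clone 1 far above the rest. Abcc4, a cyclic nucleotide exporter gene of distal chromosome 14, had 275, 152 and 138 CPM in the control clones and 124, 96.3 and 68.1 CPM in the dKO clones. Its groups did not overlap, and its difference, -0.94 on the log2 scale with an SE of 0.27, did not pass (limma adjusted p = 0.336). Clu, the clusterin gene, had 325, 165 and 92.2 CPM in the control clones and 181, 86.9 and 106 CPM in the dKO clones.

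Of the growth control genes, Cdkn1b, an inhibitor of cyclin-dependent kinases, had 204, 187 and 215 CPM in the control clones and 226, 254 and 164 CPM in the dKO clones, lowest in dKO clone 3. On distal chromosome 14 both ends were visible, with control clone 1 highest and dKO clone 3 lowest. Stk24, a distal kinase gene, had 158, 117 and 104 CPM in the control clones and 103, 106 and 77.3 CPM in the dKO clones. Vcl, vinculin, of the cytoskeleton list, had 456, 307 and 256 CPM in the control clones and 449, 416 and 333 CPM in the dKO clones, the proximal pattern. Mmp14, a membrane-bound protease gene on the distal side, had 295, 209 and 167 CPM in the control clones and 185, 159 and 112 CPM in the dKO clones.

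Of the imprinted genes, Copg2, a gene of the coatomer that coats Golgi vesicles, had 110, 89.1 and 97.2 CPM in the control clones and 98.9, 96.9 and 84.0 CPM in the dKO clones. Mest, whose listed span overlaps it, was near 5 CPM in each clone, from 4.08 to 6.27 CPM. Asb4 varied more than the shift, with 32.8, 10.0 and 12.2 CPM in the control clones and 29.2, 21.7 and 19.3 CPM in the dKO clones.

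The most abundant gene per length on chromosome 14 was Rpph1, the RNA of ribonuclease P, at a mean of 26037 FPKM, and on chromosome 6 Rpl32, at 489 FPKM. Rpph1 deviated by -0.41 in dKO clone 3, but by -0.38 and -0.32 in dKO clones 1 and 2 as well, so it did not mark that clone. Itm2b, a membrane protein gene, had 823, 647 and 504 CPM in the control clones and 464, 445 and 368 CPM in the dKO clones, and Tsc22d1 had 528, 407 and 406 CPM in the control clones and 461, 419 and 333 CPM in the dKO clones. In both, control clone 1 was highest and dKO clone 3 lowest.

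Few genes of the large receptor families on these chromosomes reached the limit. Of 33 Tas2r, 66 Olfr and 47 Vmn1r genes in the table, 0, 0 and 1 reached the 10 scaled reads, and of 28 Klr genes 3 did.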

How the data were processed

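RNA of 6 clones was sequenced as stranded libraries from 262 ng of total RNA, per the labels' protocols. Build GRCm38.p5 and the tools HOMER 4.8, STAR 2.5.2a, edgeR and SAMtools appear in the submitters' processing notes, without their roles. The deposited read columns are a signal: the authors scaled each library to a common total, per the values themselves, and dividing by each library's step gave whole reads for 100% of values (tolerance 0.01). The deposited FPKM values, per the file headers, rank genes by level per length. The authors' deposited comparison gives log2 fold changes, p-values and false discovery rates, per the file headers. Levels are log2 of scaled reads with TMM factors (edgeR 4.0.16) plus 1. Fold changes understate low genes. CPM uses recovered reads and TMM library sizes. limma 3.58.1 in R 4.3.3 tested the 16683 genes kept by filterByExpr (minimum 10 reads, total 15) by group. DESeq2 1.42.0 and edgeR were alternatives on recovered reads. Each clone gave 1 library, so p-values weigh clone, culture and library spread together. Coordinates are those of the deposited table, and 99.7% of the genes matched GENCODE M21. The sources used here do not say whether counting used strand, so overlapping genes cannot be told apart. Named were up to 6 genes against and 4 with the shift of dKO clone 3 and control clone 1, the 4 highest FPKM per chromosome, called genes and the highest of each list. Members and lists were chosen with earlier results of these data known. The scripts were tested on simulated data. Some genes the rule names are not reported here.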

Additional observations from a re-analysis of the deposited data

How the results depend on the processing

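Over 14 alternatives each, the medians of dKO clone 3 ran from -0.58 to -0.32 on chromosome 6 and from -0.56 to -0.38 on chromosome 14, and the chromosome 14 median of control clone 1 from 0.18 to 0.46, none turning its sign. The lowest values of control clone 1 there, 0.203 without TMM factors and 0.184 with every gene that had a read, compare with 0.38. The spread of the clones' medians includes the shifted clones and is no measure of stability for them. Leaving out 1 other clone gave -0.41 to -0.39, -0.48 to -0.39 and 0.34 to 0.42. The chromosome 6 median of control clone 1 (0.08) did turn: it was -0.10 without TMM factors, -0.0717 with every gene that had a read, 0.21 from a mean of 100 scaled reads, 0.12 against the mean of the other 5 clones, 0.0481 against its own group and 0.0387 to 0.110 without 1 other clone. That of control clone 2 (0.08) was 0.170, 0.260, -0.0313, 0.118 and -0.0145 in the same order of settings and 0.0285 to 0.114 without 1 clone. That of control clone 3 (0.03) was 0.0894 against the mean, -0.0126 against its group, 0.0721 relative to other chromosomes and -0.0295 to 0.0929 without 1 clone. Both chromosomes of dKO clone 1, chromosome 6 of dKO clone 2 and chromosome 14 of control clone 2 also changed sign in 1 or 2 alternatives.

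Genes against the shift of dKO clone 3 numbered 10 on chromosome 6 without TMM factors (17 to 27 without 1 clone) and 9 on chromosome 14 against the mean of the other 5 clones (5 to 15 without 1 clone). For control clone 1 they numbered 166 and 7 without TMM factors, 116 and 34 from 1 CPM and 19 and 1 from 20 CPM. Without 1 clone they numbered 35 to 47 and 3 to 4. A limit of 1 or 20 CPM also changes how many genes are looked at. The moved genes of other chromosomes were not counted in any of these alternatives. The counts therefore have no background beside them, and nothing is read from them.

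The 1 gene called per chromosome became, on chromosomes 6 and 14, 21 and 15 with DESeq2, 26 and 46 within the 4 clones, 0 and 6 with chromosome medians removed, and 0 to 11 and 0 to 5 without 1 clone. Size factors of DESeq2 in limma gave 2 on chromosome 6, the edgeR quasi-likelihood test 0 there, and limma without TMM factors 0 on chromosome 14. A replicate block on the clone number gave 18 and 15, with calls up over all genes too, to 0.36% higher and 0.815% lower. Over all genes the shares higher and lower were 0.354% and 0.899% with DESeq2, 1.69% and 1.71% within the 4 clones, 0.138% and 0.222% with medians removed, and 0.012% to 0.492% and 0.0539% to 0.336% without 1 clone, beside 0.0539% and 0.114%. The numbers share no source in the labels, so the clones were not taken as pairs. Same-numbered clones had correlations of -0.36, 0.64 and -0.34 between their deviations from the group mean, and only clone 2 correlated best with its own number. Control clone 1 and dKO clone 3, the clones unlike the rest, correlated at 0.66. With these 2 under different numbers, the correlations cannot decide whether the numbers pair the clones. Alternatives on the proximal side of chromosome 14 were chosen after seeing the data. Without 1 of the 4 clones, which leaves 1 clone in a group, the median difference of 0.48 became 0.40 to 0.55. Unless stated, the cause of a change was not tested. Depth limits the levels of Zfp422, Ccdc91, Atp6v0e2 and Hoxa9 in dKO clone 3, which rest on 8 to 63 reads.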
